A study of Homo sapiens with 12 samples.

Results

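Secreted WNT ligands, their receptors, the secreted proteins that block them and a few of the genes that report or restrain the pathway were followed in C4.2B cells treated with an AKT inhibitor, an EZH2 inhibitor or both. The members were the protein-coding genes of the count table named as a WNT ligand, a Frizzled receptor (FZD), a secreted Frizzled-related protein (SFRP) or a Dickkopf protein (DKK), together with LRP5, LRP6, AXIN2, LEF1, TCF7, WIF1, RNF43, ZNRF3 and NKD1. This gave 46 members among 58735 genes, of which 19 were WNT ligands and 10 were Frizzled receptors. Of these 46 members, 27 had enough reads to be tested, among 16646 genes tested in all.

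C4.2B is an established castration-resistant prostate cancer line that descends from LNCaP, so all results come from a single line. The 4 arms were DMSO, AKTi (0.25 µM ipatasertib for 24 hours), EZH2i (1 µM tazemetostat during a pretreatment of 6 days and for the final 24 hours) and the combination of both, with 3 libraries each, called A, B and C. During the final 24 hours the cells of every arm, DMSO included, were kept in charcoal-stripped serum, which is poor in androgen. The exposure to the agents therefore differed in length, and the AKTi arm had DMSO in the pretreatment. The 12 libraries held 14133755 to 22276417 counts, and the study's methods describe plates seeded in triplicate after the pretreatment. No source used here says that the cells of an arm were pretreated as separate cultures, so the p-values measure the spread between these libraries, which may be technical. All 7 luminal prostate markers used (KLK3, KLK2, TMPRSS2, FOLH1, HOXB13, KRT8 and KRT18) were well above 3 counts in every library. Their summed level was 3198 to 3310 CPM (counts scaled to a common library total) in DMSO, 4932 to 5015 under AKTi, 5927 to 6142 under EZH2i and 7938 to 8034 in the combination. KLK3 was the largest part of this sum in every arm (mean 1278 CPM in DMSO, 4206 in the combination). The rise was not shared by all 7. In edgeR's quasi-likelihood test, KRT18 fell with AKTi (-0.18 on the log2 scale, adjusted p = 0.0111) while 6 rose. HOXB13 fell in the combination (-0.53, adjusted p = 1.01e-10) while 6 rose. With EZH2i 5 rose, and FOLH1 (-0.11, adjusted p = 0.0563) and HOXB13 (0.10, adjusted p = 0.0955) did not pass. Of the basal, leukocyte and endothelial lists, KRT5, TP63, CD3E and CDH5 had 1 count at most in any library. Other genes of those lists were detected, with up to 7 counts for KRT14, 20 for PTPRC, 6 for CD14 and 6 for PECAM1. VWF, from the endothelial list, had 40 to 128 counts and was higher than in DMSO with AKTi (0.61 on the log2 scale, adjusted p = 0.0280), EZH2i (1.22, adjusted p = 4.69e-06) and the combination (1.24, adjusted p = 2.45e-06), and its part in the results was not tested. Over the whole lists, the summed level was 0.381 CPM at most for 3 basal, 1.20 for 3 leukocyte, 7.89 for 3 endothelial (nearly all VWF) and 2.88 for 3 neuroendocrine markers (nearly all SYP). In bulk RNA, fewer cells of a type and less RNA per cell cannot be told apart.

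WNT proteins are lipid-modified signals that bind a Frizzled receptor together with the co-receptor LRP5 or LRP6, which stops the breakdown of beta-catenin and lets it switch on genes with LEF1 or a TCF protein. Other WNT proteins, WNT5A the best known among them, act through Frizzled and ROR receptors without beta-catenin and steer cell movement and polarity. SFRP proteins and WIF1 bind WNT ligands outside the cell and DKK proteins block LRP5 and LRP6, while RNF43 and ZNRF3 remove Frizzled receptors from the cell surface and AXIN2 and NKD1 act inside the cell as feedback inhibitors. In the prostate the pathway is known from organ growth and from advanced, castration-resistant cancer.

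With EZH2i, 19 of the 27 tested members were called (70.4%, beside 64.1% of all tested genes), a share near that of all genes, and they moved in both directions. A gene was called where edgeR's quasi-likelihood test gave a Benjamini-Hochberg adjusted p under 0.05. With AKTi against DMSO, 8 of 27 tested members were higher (29.6%, beside 20.6% of all tested genes) and 3 were lower (11.1%, beside 21.9%). With EZH2i against DMSO, 11 were higher (40.7%, beside 32.6%) and 8 were lower (29.6%, beside 31.5%). With the combination against DMSO, 13 were higher (48.1%, beside 38%) and 7 were lower (25.9%, beside 35.2%).

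Adding EZH2i to AKTi (combination against AKTi) left 12 members higher (44.4%, beside 32.1% of all tested genes) and 8 lower (29.6%, beside 32.1%). Adding AKTi to EZH2i (combination against EZH2i) left 9 higher (33.3%, beside 21.1%) and 6 lower (22.2%, beside 25.7%). The interaction is the combination change minus the sum of both single-agent changes on the log2 scale. It was called above 0 for 4 members (14.8%, beside 10.7%) and called below 0 for 4 (14.8%, beside 17.5%). The median log2 fold change of the tested members was 0.13 with AKTi, 0.07 with EZH2i and 0.23 in the combination, against 0.01, 0.03 and 0.06 over all tested genes. WNT4 passed the filter on low counts only through its EZH2i and combination libraries and SFRP4 only through its combination libraries, so they had to differ, and no test of these differences is given for them below. Without these 2 genes, 10 of 25 were higher (40.0%) and 8 lower (32.0%) with EZH2i. In the combination 11 were higher (44.0%) and 7 lower (28.0%). Of all genes that did not pass only through arms with, or only through arms without, EZH2i, 31.2% were higher and 35.3% lower with EZH2i. In the combination these shares were 36.2% and 39.3%. Of the same 25 members, 10 were higher and 8 lower for the combination against AKTi. The combination against EZH2i gave 8 and 6, and the interaction 3 and 4.

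These directions are relative to the TMM scaling. Scaling by library size only moved the median of all genes to 0.18 with EZH2i, 0.26 in the combination and 0.17 for the combination against AKTi. The called members then split into 14 higher and 6 lower with EZH2i and into 17 higher and 5 lower in the combination. Over all genes, the split with EZH2i went from 5421 higher and 5249 lower to 6630 and 4193. That for the combination against DMSO went from 6320 and 5866 to 7574 and 4749, so all genes tilted upwards too. That for the combination against AKTi went from 5344 and 5343 to 6544 and 4330. The changes above 1 on the log2 scale described next kept their direction and their call under every scaling.

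Among the ligands, WNT10B, WNT7B and WNT8B had the highest levels per length in DMSO. Under EZH2i and in the combination WNT10B and WNT8B were lower and WNT5A and WNT9A were higher, while WNT7B kept a high level in every arm. Of the 9 tested ligands, 3 were higher and 2 lower with AKTi, and 5 higher and 2 lower with EZH2i. In the combination 5 were higher and 2 lower, and WNT4 is among the higher there and with EZH2i. Over all tested genes, 20.6% were higher and 21.9% lower with AKTi, 32.6% and 31.5% with EZH2i, and 38% and 35.2% in the combination. WNT7B passed as a further higher ligand in the combination under library-size scaling (0.20) or upper-quartile scaling (0.19).

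WNT10B (ENSG00000169884, chr12:48965340-48971763 of hg38, minus strand) is a ligand of the beta-catenin branch. Normalised counts of WNT10B in libraries A, B and C were 260.3, 262 and 294 in DMSO, 201, 215 and 204 under AKTi, 71.5, 60.7 and 97.6 under EZH2i and 29.5, 42.6 and 43.6 in the combination. No arm overlapped another, and the combination was lowest. WNT10B fell to 0.287 of the DMSO level with EZH2i (log2 fold change -1.80 ± 0.16 SE, adjusted p = 1.26e-12) and to 0.143 in the combination (-2.81 ± 0.17, adjusted p = 4.31e-17). The smaller fall with AKTi (-0.39 ± 0.14, adjusted p = 0.0269) lost its call with library size or upper-quartile scaling and without AKTi A, AKTi C or DMSO C (adjusted p up to 0.109).

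WNT8B (ENSG00000075290, chr10:100463041-100483744, plus strand), best known from the developing brain, moved in opposite directions with the single agents. Normalised counts of WNT8B were 105, 71.7 and 87.0 in DMSO, 121, 138 and 151 under AKTi, 37.9, 26.5 and 26.1 under EZH2i and 34.5, 30.6 and 20.3 in the combination. All AKTi libraries were above DMSO and all EZH2i and combination libraries below it, and the last pair of arms overlapped. The rise with AKTi was 1.56-fold (0.65 ± 0.20, adjusted p = 0.00877) and was not called without AKTi C or DMSO B (adjusted p up to 0.0682). The fall was to 0.342 with EZH2i (-1.55 ± 0.23, adjusted p = 3.33e-07) and to 0.331 in the combination (-1.59 ± 0.23, adjusted p = 1.43e-07).

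WNT5A (ENSG00000114251, chr3:55465715-55490539, minus strand) also moved in opposite directions, the other way round. Normalised counts of WNT5A were 99.5, 90.8 and 82.2 in DMSO, 36.1, 37.6 and 56.5 under AKTi, 361, 346 and 429.7 under EZH2i and 258, 192 and 261 in the combination. The 4 arms did not overlap, with AKTi lowest, DMSO next, then the combination, and EZH2i highest. AKTi lowered WNT5A to 0.485 of DMSO (-1.04 ± 0.20, adjusted p = 3.45e-05) and EZH2i raised it 4.23-fold (2.08 ± 0.15, adjusted p = 5.41e-15). In the combination WNT5A was 2.65-fold above DMSO (1.41 ± 0.15, adjusted p = 1.68e-10) and below EZH2i alone (-0.67 ± 0.13, adjusted p = 4.87e-05). An antisense gene over WNT5A, WNT5A-AS1, had 22, 7, 103 and 50 counts in DMSO, AKTi, EZH2i and the combination, or 7.43% of the WNT5A count in all, and the sources used here do not say whether counting used strand. The summed level of 6 fibroblast markers also went up with EZH2i. It was 5.93 to 8.75 CPM in DMSO, 19.3 to 20.9 under EZH2i and 13.2 to 17.0 in the combination. Most of this rise was COL1A1, while COL1A2 had 2 counts at most in any library. COL3A1, at 4 to 34 counts, was also higher with EZH2i (1.29, adjusted p = 0.00827) but not called in the combination (0.63, adjusted p = 0.205). DCN and LUM had 7 and 8 counts at most, with their highest means under EZH2i (0.154 and 0.254 CPM). Under AKTi, where WNT5A fell, the fibroblast sum was 7.36 to 8.71 CPM. There COL1A1 changed by -0.14 (adjusted p = 0.589) and COL3A1 by -0.88 (adjusted p = 0.195). PDGFRB of the same list gave 0.79 with AKTi, -0.72 with EZH2i and -0.61 in the combination, none of them called (adjusted p = 0.0726, 0.107 and 0.155). The part of these genes in the WNT5A values was not tested.

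WNT9A (ENSG00000143816, chr1:227918656-227947898, minus strand) was higher with each agent. Normalised counts of WNT9A were 50.3, 51.4 and 72.0 in DMSO, 82.8, 99.0 and 117 under AKTi, 204, 143 and 165 under EZH2i and 219.9, 222 and 181 in the combination. Every treated library was above every DMSO library, and EZH2i and the combination overlapped. The rise was 1.71-fold with AKTi (0.77 ± 0.19, adjusted p = 0.000997), 2.90-fold with EZH2i (1.54 ± 0.18, adjusted p = 1.08e-09) and 3.58-fold in the combination (1.84 ± 0.17, adjusted p = 5.65e-12).

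WNT4 (ENSG00000162552, chr1:22117305-22143969, minus strand), a ligand of kidney and gonad development, was nearly silent in DMSO. Normalised counts of WNT4 were 3.28, 4.78 and 3.95 in DMSO, 8.16, 9.11 and 7.90 under AKTi, 35.7, 38.9 and 32.0 under EZH2i and 46.8, 59.2 and 59.1 in the combination. The arms did not overlap, although the combination did not pass the test against EZH2i (0.64 ± 0.28, adjusted p = 0.0588) nor AKTi against DMSO (1.06 ± 0.52, adjusted p = 0.0969). The pooled raw counts were 12 in DMSO, 117 under EZH2i and 182 in the combination. The ratio to DMSO was 8.93 with EZH2i (exact 95% interval 4.92 to 17.8, counting error only) and 13.9 in the combination (7.78 to 27.4), with fitted log2 fold changes of 3.13 and 3.77, given as descriptions because WNT4 was tested only through its high libraries.

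WNT2B, a ligand of the beta-catenin branch, was also low in DMSO. Normalised counts of WNT2B were 12, 19.1 and 12.7 in DMSO, 23.3, 17.1 and 19.2 under AKTi, 43.3, 19.0 and 31.3 under EZH2i and 50.0, 52.8 and 50.4 in the combination. The combination libraries were above all others, whereas EZH2i B lay within the DMSO range. The rise was 3.58-fold in the combination (1.84 ± 0.33, adjusted p = 7.52e-06) and 2.16-fold with EZH2i (1.11 ± 0.35, adjusted p = 0.00581), the latter not called without EZH2i A (adjusted p = 0.0593). The difference between the combination and EZH2i (0.73 ± 0.30, adjusted p = 0.0431) was 0.48 without EZH2i B, and it lost its call without any combination library, without EZH2i B or C, with DESeq2 and with a filter of 1 count in total (adjusted p up to 0.233). The gene ST7L on the opposite strand overlaps WNT2B and had 5043 counts in all, with 1468, 1156, 1247 and 1172 in the 4 arms, so reads in the overlap cannot be told apart if strand was not used.

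The other 3 tested ligands changed in single arms. Normalised counts of WNT10A were 53.6, 34.7 and 28.5 in DMSO, 87.5, 86.5 and 71.1 under AKTi, 40.1, 39.8 and 26.1 under EZH2i and 50.9, 50.9 and 41.7 in the combination. The AKTi libraries of WNT10A stood above all others, 2.14-fold over DMSO (1.10 ± 0.25, adjusted p = 0.000531), and the combination was lower than AKTi (-0.76 ± 0.24, adjusted p = 0.00679). Normalised counts of WNT7B were 404, 426 and 444 in DMSO, 471, 471 and 445 under AKTi, 629, 604 and 664 under EZH2i and 437, 385 and 435 in the combination. WNT7B was 1.5-fold higher with EZH2i (0.59 ± 0.08, adjusted p = 1.28e-07), and in the combination it overlapped DMSO. WNT3 was called only in the combination among the contrasts against DMSO, with 35.8 to 45.4 normalised counts against 18.2 to 26.2 in DMSO (0.97 ± 0.31, adjusted p = 0.00554), above every library of the other arms.

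**Figure D1:**
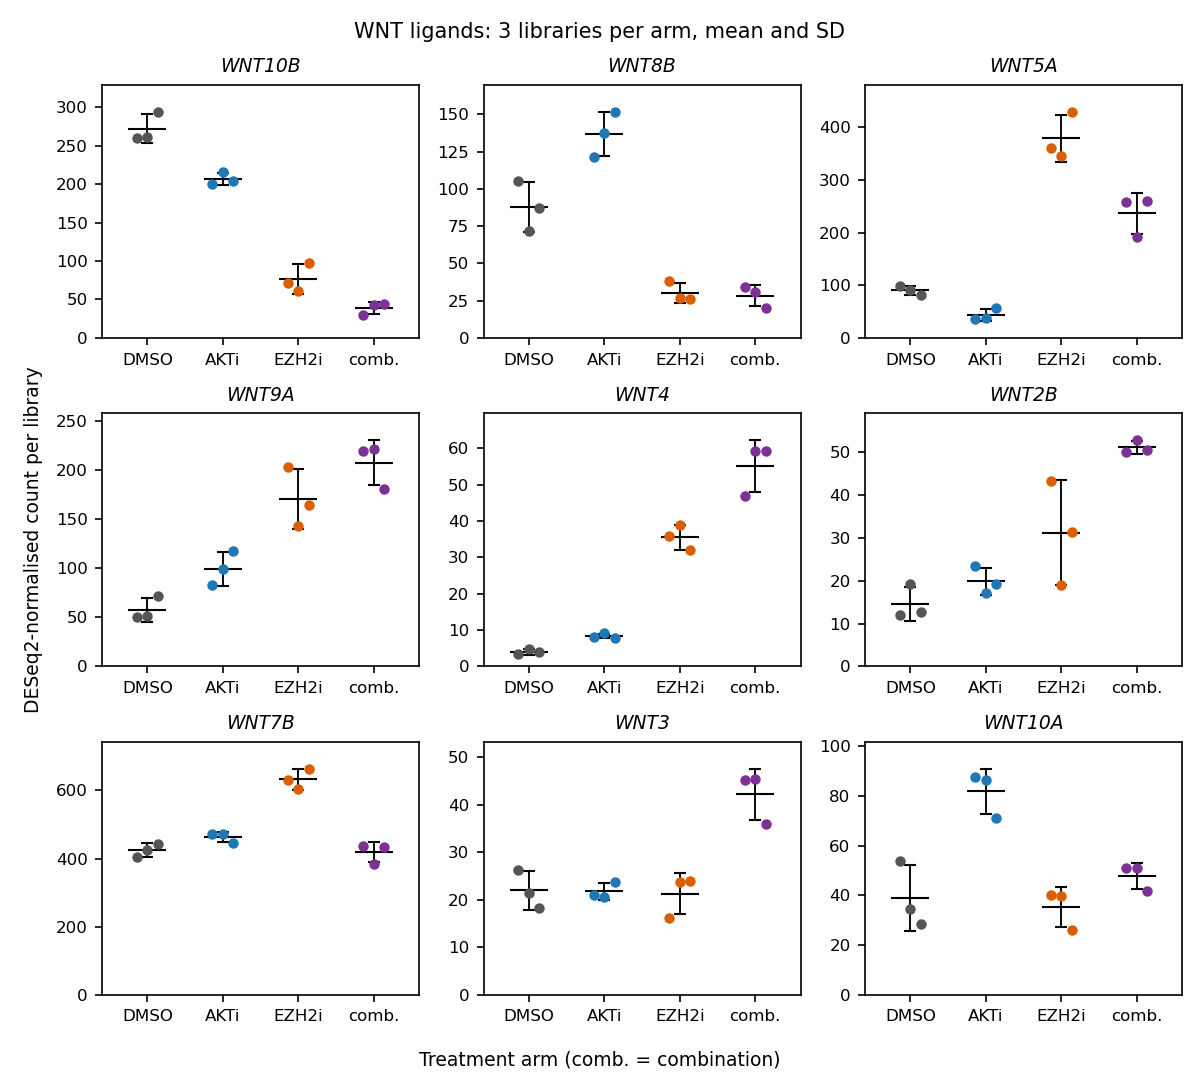
Normalised count (counts divided by the authors' DESeq2 size factor, vertical axis from 0) of the 9 tested WNT ligands by treatment arm; points are the 3 libraries, the horizontal mark is their mean and the bars are 1 SD. WNT10B falls from 260.3 to 294 in DMSO to 29.5 to 43.6 in the combination, whereas WNT5A is lowest under AKTi (36.1 to 56.5) and highest under EZH2i (346 to 429.7).

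Levels of different genes were compared per length, as RPKM (the read count divided by the length of the gene model and by the TMM-scaled library size). In DMSO the ligands followed the order WNT10B (6.34 ± 0.385, SD, n = 3), WNT7B (5.15 ± 0.209), WNT8B (2.55 ± 0.484), WNT9A (0.892 ± 0.179), WNT5A (0.753 ± 0.0771), WNT10A (0.70 ± 0.239), WNT3 (0.311 ± 0.0593), WNT2B (0.0713 ± 0.0196) and WNT4 (0.0542 ± 0.0103), all in RPKM. WNT9A, WNT5A and WNT10A lay within each other's spread, as did WNT2B and WNT4. In the combination the order began with WNT7B (5.16 ± 0.353), WNT9A (3.25 ± 0.352) and WNT5A (1.99 ± 0.325), and WNT10B stood at 0.912 ± 0.189 RPKM.

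The summed RPKM of the 19 ligands moved far less than its parts. The sum was 17.0 ± 0.631 in DMSO, 18.4 ± 0.527 under AKTi, 17.9 ± 1.23 under EZH2i and 14.8 ± 0.422 in the combination (SD, n = 3). WNT10B made up 37.4% ± 1.73 of this sum in DMSO, 26.4% ± 0.709 under AKTi, 9.99% ± 1.92 under EZH2i and 6.21% ± 1.44 in the combination. WNT9A and WNT5A went from 5.25% ± 0.923 and 4.45% ± 0.515 in DMSO to 22.0% ± 2.23 and 13.5% ± 2.09 in the combination. WNT7B held 30.4% ± 1.68 in DMSO and 34.9% ± 2.16 in the combination, and its largest share was 43.3% ± 1.42 under EZH2i.

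**Figure D2:**
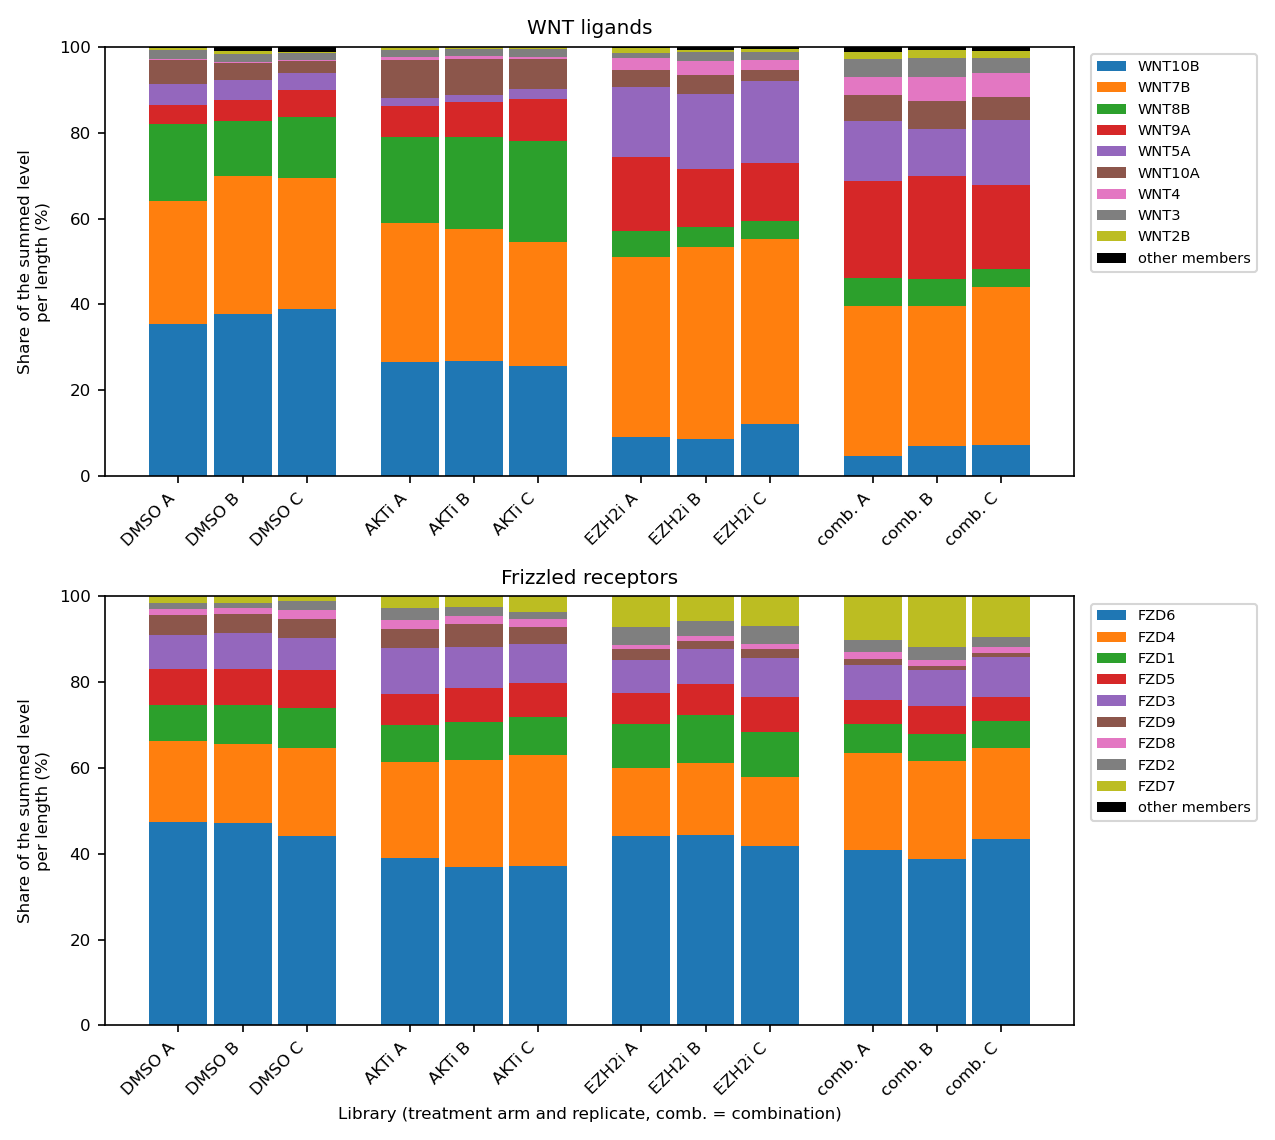
Share of the summed level per length (percent of summed RPKM, vertical axis from 0 to 100) that each WNT ligand (top) and each Frizzled receptor (bottom) took in each of the 12 libraries; each bar is 1 library and each colour 1 gene. WNT10B shrinks from a mean of 37.4% in DMSO to 6.21% in the combination while WNT9A grows from 5.25% to 22.0%, and among receptors FZD7 grows from 1.41% to 10.5%.

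The promoters of ligands and receptors that rose and fell under EZH2i are shown to let their base composition be compared, since CpG-rich promoters are common sites of the histone mark that EZH2 writes. RefSeq (GRCh38.p14) gave the 250 bases before a transcription start for 30 of the 46 members, 35 promoters in all; AXIN2, DKK2, DKK3, DKK4, FZD10, FZD2, FZD3, FZD6, FZD7, LRP6, NKD1, SFRP1, WNT10B, WNT11, WNT7B and ZNRF3 had none. WNT9A (chr1:227947933-227948182, minus strand) and WNT4 (chr1:22143098-22143347, minus strand) stood higher under EZH2i, and FZD9 (chr7:73433528-73433777, plus strand) and WNT8B (chr10:100462759-100463008, plus strand) fell. CpG pairs are in capitals, and all are written 5′ to 3′ on the strand of the gene.
WNT9A: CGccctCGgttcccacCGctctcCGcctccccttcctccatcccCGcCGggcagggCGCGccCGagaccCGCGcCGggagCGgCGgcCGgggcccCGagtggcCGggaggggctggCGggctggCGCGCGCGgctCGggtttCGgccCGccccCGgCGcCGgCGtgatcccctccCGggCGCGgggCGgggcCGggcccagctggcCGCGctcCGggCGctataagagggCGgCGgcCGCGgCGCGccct
WNT4: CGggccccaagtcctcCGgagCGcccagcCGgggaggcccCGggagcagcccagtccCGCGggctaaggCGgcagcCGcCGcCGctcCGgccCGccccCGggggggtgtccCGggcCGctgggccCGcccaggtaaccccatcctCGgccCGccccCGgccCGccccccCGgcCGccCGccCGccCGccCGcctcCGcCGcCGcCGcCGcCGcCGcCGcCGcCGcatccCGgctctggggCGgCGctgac
FZD9: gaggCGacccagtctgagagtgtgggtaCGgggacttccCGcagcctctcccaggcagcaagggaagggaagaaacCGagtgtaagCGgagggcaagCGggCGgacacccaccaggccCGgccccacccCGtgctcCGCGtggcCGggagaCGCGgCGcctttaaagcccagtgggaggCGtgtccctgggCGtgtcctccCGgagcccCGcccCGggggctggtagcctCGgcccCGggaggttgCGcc
WNT8B: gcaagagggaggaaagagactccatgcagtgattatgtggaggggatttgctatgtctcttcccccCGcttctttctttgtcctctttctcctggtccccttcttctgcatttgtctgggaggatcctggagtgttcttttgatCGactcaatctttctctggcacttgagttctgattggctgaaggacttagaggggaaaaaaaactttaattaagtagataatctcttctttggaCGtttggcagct
The window of WNT9A held 44 CpG pairs and that of WNT4 held 40, against 23 for FZD9 and 3 for WNT8B. The median was 22 over the 35 promoters of members and 11 over all 35116 promoters of the table. By the EZH2i call, the median was 18 in 9 promoters of members that were higher, 24 in 5 of members that were lower, 22 in 7 of tested members not called and 24 in 14 of members not tested. The letters CTTTGA or CTTTGT, the core bound by LEF1 and TCF proteins, stood on either strand in 6 of the 35 promoters (17.1%), and in 22.8% of all promoters of the table.

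The Frizzled receptors changed less in their main members than in their rarer ones. FZD6 and FZD4 had the highest levels per length in DMSO (27.0 ± 1.13 and 11.3 ± 0.858 RPKM), followed by FZD1 (5.28 ± 0.197), FZD5 (4.93 ± 0.168) and FZD3 (4.68 ± 0.182), which lay close to each other. Of the 9 tested receptors, 3 were higher and 1 lower with AKTi, and 4 were higher and 3 lower in the combination. With EZH2i 2 were higher and 5 lower. There both other scalings (library size only, upper quartile) called FZD1 higher and no longer called FZD5 and FZD6. Shares of all tested genes were 20.6% higher and 21.9% lower with AKTi, 38% and 35.2% in the combination, and 32.6% and 31.5% with EZH2i. The summed RPKM of the Frizzled genes was 58.4 ± 1.20 in DMSO, 58.2 ± 0.657 under AKTi, 52.4 ± 1.69 under EZH2i and 63.5 ± 1.73 in the combination.

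FZD7 (ENSG00000155760, chr2:202034587-202038445, plus strand), a receptor often linked to stem-like cells, rose with each agent and most with both. Normalised counts of FZD7 were 54.7, 57.4 and 43.5 in DMSO, 95.6, 88.8 and 131 under AKTi, 235, 192 and 221 under EZH2i and 414, 449.9 and 372 in the combination. The 4 arms did not overlap. FZD7 was 2.07-fold higher with AKTi (1.05 ± 0.18, adjusted p = 7.40e-06), 4.25-fold with EZH2i (2.09 ± 0.16, adjusted p = 5.18e-14) and 8.17-fold in the combination (3.03 ± 0.15, adjusted p = 1.39e-19). Its share of the Frizzled RPKM went from 1.41% ± 0.226 in DMSO to 2.89% ± 0.626, 6.62% ± 0.787 and 10.5% ± 1.20 in these arms.

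FZD9 (ENSG00000188763, chr7:73433783-73436120, plus strand) fell where EZH2 was inhibited, and its promoter is printed above. Normalised counts of FZD9 were 104, 93.2 and 98.8 in DMSO, 102, 113 and 91.5 under AKTi, 54.1, 39.8 and 38.7 under EZH2i and 31.2, 22.2 and 23.2 in the combination. AKTi overlapped DMSO, EZH2i lay below both and the combination below EZH2i. FZD9 fell to 0.448 of DMSO with EZH2i (-1.16 ± 0.21, adjusted p = 8.23e-06) and to 0.265 in the combination (-1.92 ± 0.22, adjusted p = 1.20e-09). The step from EZH2i to the combination (-0.76 ± 0.24, adjusted p = 0.00926) was not called without EZH2i A (adjusted p = 0.0657).

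FZD2, a receptor of WNT5A and other ligands, rose where EZH2 was inhibited. Normalised counts of FZD2 were 30.6, 21.5 and 39.5 in DMSO, 60.6, 39.9 and 33.9 under AKTi, 76.9, 65.4 and 72.2 under EZH2i and 62.4, 64.8 and 53.3 in the combination. EZH2i and combination libraries were above all DMSO libraries, and AKTi overlapped both DMSO and the combination. FZD2 was 2.30-fold higher with EZH2i (1.20 ± 0.25, adjusted p = 7.76e-05) and 1.95-fold in the combination (0.96 ± 0.25, adjusted p = 0.000984).

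FZD4, which also serves as the receptor of norrin, moved in opposite directions with the single agents. Normalised counts of FZD4 were 1348, 1248 and 1479 in DMSO, 1569, 1727 and 1801 under AKTi, 1008, 1084 and 968 under EZH2i and 1758, 1668 and 1602 in the combination. The combination lay within the AKTi range, above DMSO, and EZH2i was below all. FZD4 was 1.26-fold higher with AKTi (0.33 ± 0.07, adjusted p = 9.24e-05), fell to 0.754 with EZH2i (-0.41 ± 0.07, adjusted p = 2.09e-06) and was 1.25-fold higher in the combination (0.32 ± 0.07, adjusted p = 4.35e-05). The gene PRSS23 on the opposite strand overlaps FZD4 and had 226, 157, 746 and 631 counts in the 4 arms, or 10.0% of the FZD4 count.

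FZD6, the most abundant Frizzled per length, fell with each single agent. Normalised counts of FZD6 were 1859, 1777 and 1734 in DMSO, 1506, 1405 and 1417 under AKTi, 1527, 1576 and 1392 under EZH2i and 1752, 1557 and 1811 in the combination. Both single-agent arms were below DMSO, and the combination overlapped DMSO and EZH2i. FZD6 fell to 0.812 with AKTi (-0.30 ± 0.06, adjusted p = 0.000233) and to 0.842 with EZH2i (-0.25 ± 0.06, adjusted p = 0.000965), while the combination gave -0.05 ± 0.06 (adjusted p = 0.501), which turned to a called rise of 0.15 with scaling by library size only.

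FZD1 was lower in the combination alone. Normalised counts of FZD1 were 574, 598 and 628 in DMSO, 569, 585 and 588 under AKTi, 601, 673 and 601 under EZH2i and 493, 442 and 448 in the combination. The combination libraries were below all others (-0.36 ± 0.08 against DMSO, adjusted p = 0.000133), a call lost with scaling by library size only (-0.16, adjusted p = 0.0623). The other 3 tested Frizzled genes changed by less than 1 on the log2 scale. FZD3 was higher with AKTi (0.28 ± 0.07, adjusted p = 0.00150, not called without AKTi A) and in the combination (0.23 ± 0.07, adjusted p = 0.00433, not called without combination C). FZD5 was lower with EZH2i (-0.30 ± 0.08, adjusted p = 0.00185) and in the combination (-0.40 ± 0.08, adjusted p = 5.83e-05). FZD8 was lower with EZH2i alone (-0.89 ± 0.24, adjusted p = 0.00139), at 27.1 to 38.9 normalised counts against 52.5 to 84.6 in DMSO.

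**Figure D3:**
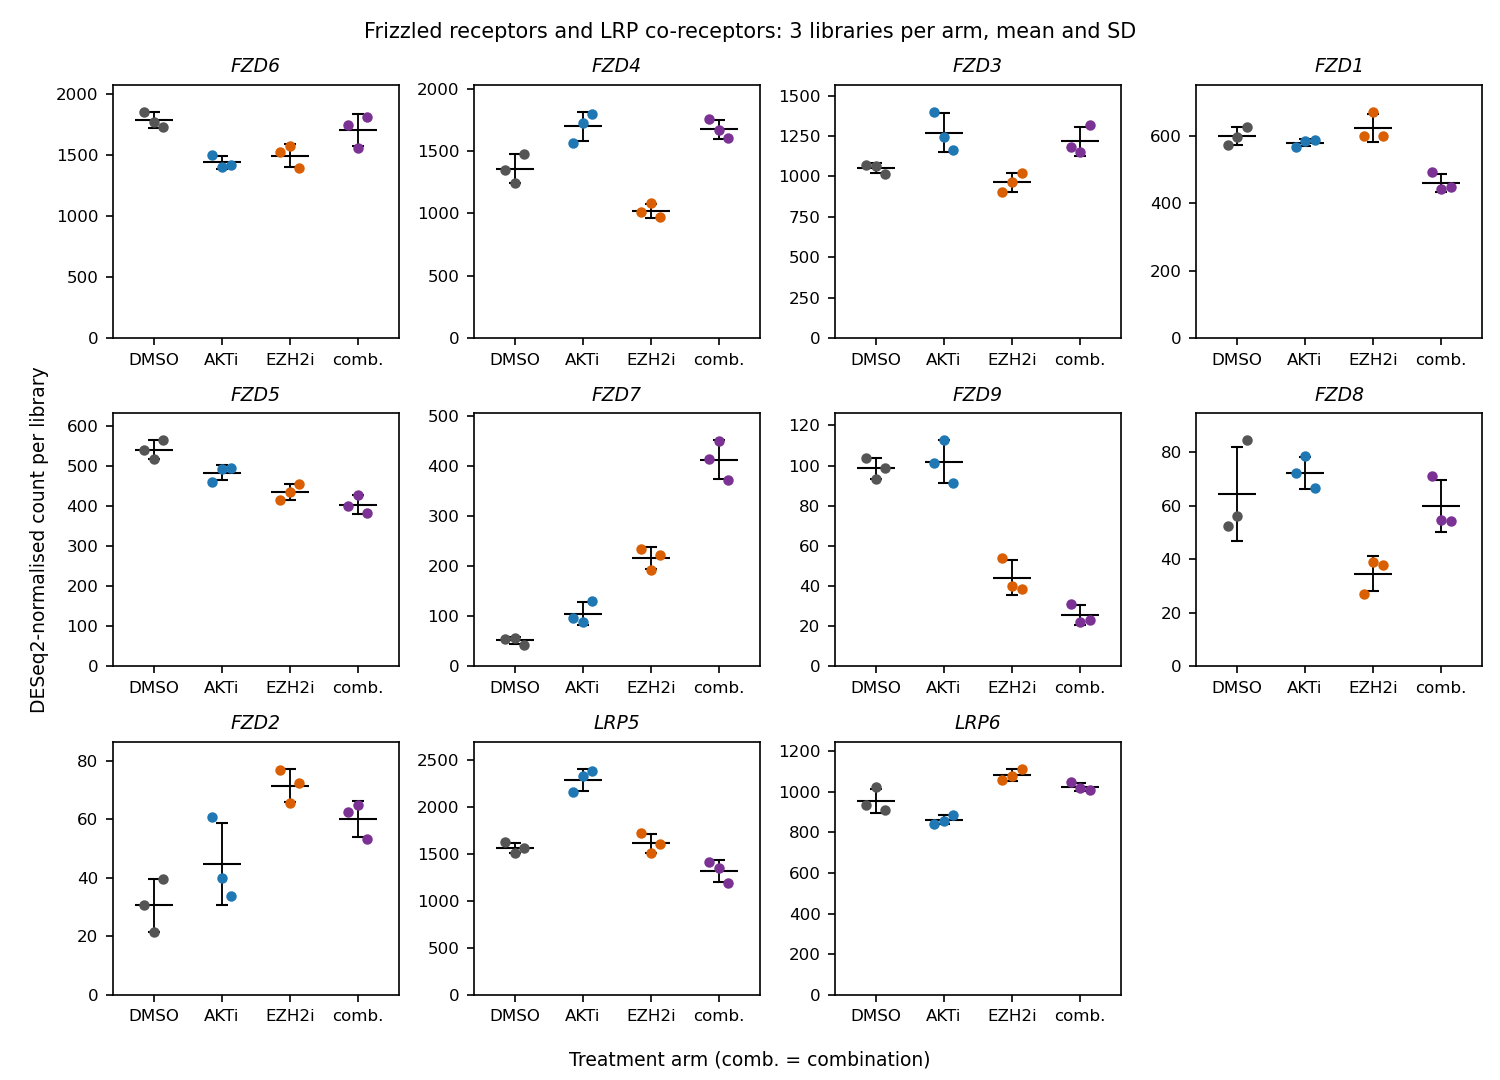
Normalised count (vertical axis from 0) of the 9 tested Frizzled receptors and of LRP5 and LRP6 by treatment arm; points are the 3 libraries, the horizontal mark is their mean and the bars are 1 SD. FZD7 climbs from 43.5 to 57.4 in DMSO to 372 to 449.9 in the combination, FZD9 falls to 22.2 to 31.2, and LRP5 is highest under AKTi (2158 to 2380.0) and lowest in the combination (1187 to 1414).

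LRP5 (ENSG00000162337, chr11:68312609-68449275, plus strand), the co-receptor with the higher level per length (15.6 ± 0.559 RPKM in DMSO, against 5.67 ± 0.397 for LRP6), rose with AKTi but not in the combination. Normalised counts of LRP5 were 1623, 1514 and 1559 in DMSO, 2158, 2334 and 2380.0 under AKTi, 1719, 1508 and 1609 under EZH2i and 1414, 1354 and 1187 in the combination. AKTi was above and the combination below every library of the other arms. LRP5 was 1.47-fold higher with AKTi (0.56 ± 0.06, adjusted p = 5.19e-09), and adding EZH2i to AKTi lowered it to 0.580 (-0.79 ± 0.06, adjusted p = 3.18e-13). LRP5 was not called with EZH2i, where library size and upper-quartile scaling called it higher (0.20 and 0.17, adjusted p = 0.00659 and 0.0180). The difference between the combination and DMSO (-0.23 ± 0.07, adjusted p = 0.00225) lost its call with library size or upper-quartile scaling (-0.03 and -0.04). LRP6 was higher with EZH2i (0.20 ± 0.07, adjusted p = 0.00929), a call lost without DMSO C or EZH2i C, and did not pass in the combination (0.12 ± 0.07, adjusted p = 0.0930), where library size scaling called it higher (0.32).

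The secreted antagonists were hardly expressed, and SFRP4 (ENSG00000106483, chr7:37905932-38025695, minus strand) was the 1 tested gene of 9. SFRP4 encodes a secreted Frizzled-related protein that binds WNT ligands. Normalised counts of SFRP4 were 0, 0 and 2.37 in DMSO, 0 in each AKTi library, 2.17, 2.84 and 1.49 under EZH2i and 15.6, 16.7 and 12.6 in the combination. The combination libraries stood above all others, from pooled raw counts of 3, 0, 7 and 50. The ratio of the combination to DMSO was 15.3 (exact 95% interval 4.94 to 76.7, counting error only), and the combination was at least 13.2-fold higher than AKTi, taking 3 counts over the arm as the most that 0 allows. Without DMSO C, which holds all 3 DMSO counts, the combination was at least 8.82-fold above DMSO, and without 1 of the AKTi libraries it was at least 8.73- to 8.90-fold above AKTi. These are descriptions, since SFRP4 was tested only through its combination libraries. The gene EPDR1 on the opposite strand overlaps SFRP4 and had 497, 265, 359 and 660 counts in the 4 arms, many times the SFRP4 count, and its part in these reads was not tested.

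Among the 8 antagonists not tested, SFRP1 had 0 to 19 raw counts per library, with 4 pooled counts in DMSO, 7 under AKTi, 21 under EZH2i and 37 in the combination. Its ratio to DMSO was 8.49 (exact 95% interval 3.05 to 32.8, counting error only) in the combination and 4.81 (1.62 to 19.3) with EZH2i. The DMSO libraries held 1, 3 and 0 of these counts. Leaving out DMSO B or C moved the ratio to 24.6 or 4.90 in the combination and to 13.9 or 2.77 with EZH2i. Without DMSO C the interval with EZH2i was 0.935 to 11.1, which includes no change. SFRP2 had 0 to 6 raw counts per library, SFRP5 and DKK3 had 3 and 2 at most, and DKK1 had 2 at most. DKK2, DKK4 and WIF1 had 0 in all 12 libraries, as had WNT1 and the receptor FZD10. Of the 10 ligands not tested, WNT5B had 0 counts in every DMSO and AKTi library, 1, 3 and 0 under EZH2i and 8, 1 and 4 in the combination. Pooled, the combination was at least 3.98-fold above DMSO, a bound that fell to 2.42 without combination A, which held most of these counts, and to 2.29 without DMSO C. WNT2, WNT3A, WNT6, WNT7A, WNT8A, WNT9B, WNT11 and WNT16 had 4 counts at most in any library, which is too few to compare arms. Of 4 pairs of WNT genes that lie next to each other on a chromosome, WNT10A and WNT6, WNT3 and WNT9B, WNT9A and WNT3A, and WNT10B and WNT1, the first of each was tested and the second was not, even though the gene models of WNT3 and WNT9B lie 46 bases apart.

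The ligases that remove Frizzled receptors changed in opposite directions with EZH2i. RNF43 lies at chr17:58352500-58417595 on the minus strand (ENSG00000108375). Normalised counts of RNF43 were 108, 114 and 135 in DMSO, 111, 92.2 and 111 under AKTi, 460.2, 438 and 508 under EZH2i and 555, 422 and 453 in the combination. AKTi overlapped DMSO, and EZH2i and the combination overlapped each other far above both. RNF43 was 3.94-fold higher with EZH2i (1.98 ± 0.12, adjusted p = 1.12e-16) and 4.03-fold higher in the combination (2.01 ± 0.12, adjusted p = 2.57e-17), while AKTi gave -0.19 ± 0.15 (adjusted p = 0.317). ZNRF3 fell to 0.643 with EZH2i (-0.64 ± 0.10, adjusted p = 1.48e-06) and to 0.624 in the combination (-0.68 ± 0.10, adjusted p = 3.29e-07), at 284 to 354 and 310.1 to 316 normalised counts against 415 to 577 in DMSO. Per length, ZNRF3 led in DMSO (4.46 ± 0.710 RPKM against 0.971 ± 0.107 for RNF43) and RNF43 in the combination (3.94 ± 0.553 against 2.79 ± 0.0315).

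LEF1 (ENSG00000138795, chr4:108047545-108168956, minus strand), a DNA-binding partner of beta-catenin, rose with EZH2i and more in the combination. Normalised counts of LEF1 were 102, 90.8 and 108 in DMSO, 93.3, 72.9 and 77.9 under AKTi, 209, 238 and 239 under EZH2i and 417, 411 and 419.5 in the combination. AKTi overlapped DMSO, and EZH2i and the combination formed separate, higher groups. LEF1 was 2.29-fold higher with EZH2i (1.20 ± 0.13, adjusted p = 2.46e-10) and 4.19-fold in the combination (2.07 ± 0.12, adjusted p = 1.98e-17), while AKTi gave -0.30 ± 0.15 (adjusted p = 0.110). TCF7, a related factor, was low (0.196 ± 0.0335 RPKM in DMSO) and called in no contrast, with 20.3 to 38.9 normalised counts over all libraries. Its combination estimate was 0.01 ± 0.30, and SKP1, which overlaps it on the opposite strand, had 50585 counts.

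Each of the feedback genes AXIN2 and NKD1 was called in some arms and not in others. AXIN2, a scaffold of beta-catenin breakdown that is widely read as a target of the pathway, was 1.53-fold higher with EZH2i (0.61 ± 0.17, adjusted p = 0.00232) and 1.80-fold higher in the combination (0.85 ± 0.17, adjusted p = 3.37e-05), at 117 to 134 and 135 to 154 normalised counts against 58.0 to 102 in DMSO, while AKTi gave 0.16 ± 0.18 (adjusted p = 0.523). NKD1, which binds Dishevelled, was higher with AKTi (0.48 ± 0.17, adjusted p = 0.0207), a call lost without AKTi B, AKTi C or DMSO B (adjusted p up to 0.161). With EZH2i NKD1 gave 0.27 (adjusted p = 0.157) and in the combination 0.22 (adjusted p = 0.243). Scaling by library size or upper quartile called NKD1 higher with EZH2i (0.42 and 0.39) and in the combination (0.42 and 0.40).

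**Figure D4:**
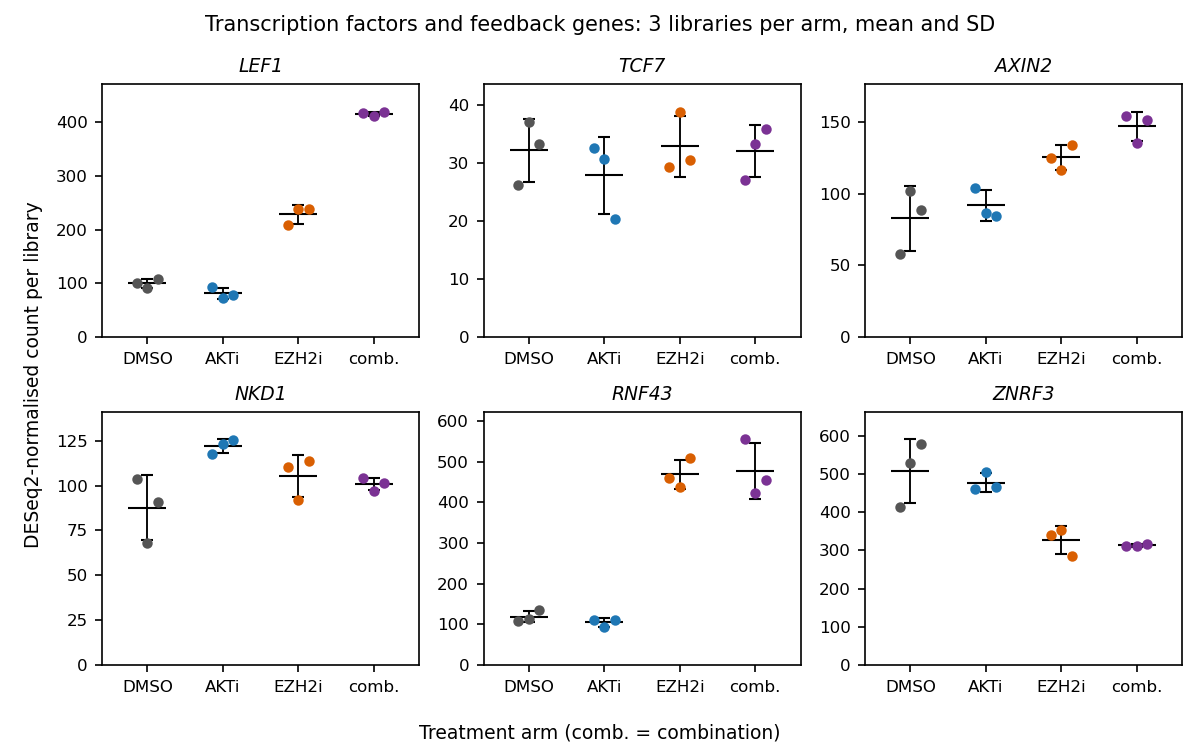
Normalised count (vertical axis from 0) of LEF1, TCF7, AXIN2, NKD1, RNF43 and ZNRF3 by treatment arm; points are the 3 libraries, the horizontal mark is their mean and the bars are 1 SD. LEF1 steps from 90.8 to 108 in DMSO to 209 to 239 under EZH2i and 411 to 419.5 in the combination, RNF43 is high in both arms with EZH2i, and TCF7 stays between 20.3 and 38.9.

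The interaction was called for 8 members. SFRP4 is counted among them but passed the filter only through its combination libraries, so its call is no test. For LEF1, LRP5, WNT7B and FZD6 the combination stood far from the sum of both single-agent changes. LEF1 had a sum of 0.90 and a combination change of 2.07 (interaction 1.16 ± 0.19, adjusted p = 6.28e-06). LRP5 had a sum of 0.61 and a combination change of -0.23 (-0.84 ± 0.09, adjusted p = 4.73e-09). WNT7B had a sum of 0.72 and a combination change of 0.00 (-0.72 ± 0.12, adjusted p = 1.36e-05), so that the rise with EZH2i was not seen in the presence of AKTi. FZD6 had a sum of -0.55 and a combination change of -0.05 (0.50 ± 0.09, adjusted p = 4.94e-05).

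The interaction was also called for FZD4 (0.40 ± 0.09, adjusted p = 0.00119) and FZD1 (-0.39 ± 0.11, adjusted p = 0.00779). For FZD9 it was -0.81 ± 0.31 (adjusted p = 0.0464). That call was lost without any of 8 single libraries (adjusted p up to 0.147) and with a filter of 1 count in total (adjusted p = 0.0834). The interaction of SFRP4 rests on arms with 0 to 7 pooled counts, and its call was lost without DMSO C or any AKTi library. The interaction of FZD7, whose combination change was the largest among the Frizzled genes, was -0.11 ± 0.22 (adjusted p = 0.763), which does not show that the single-agent effects add up.

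**Figure D5:**
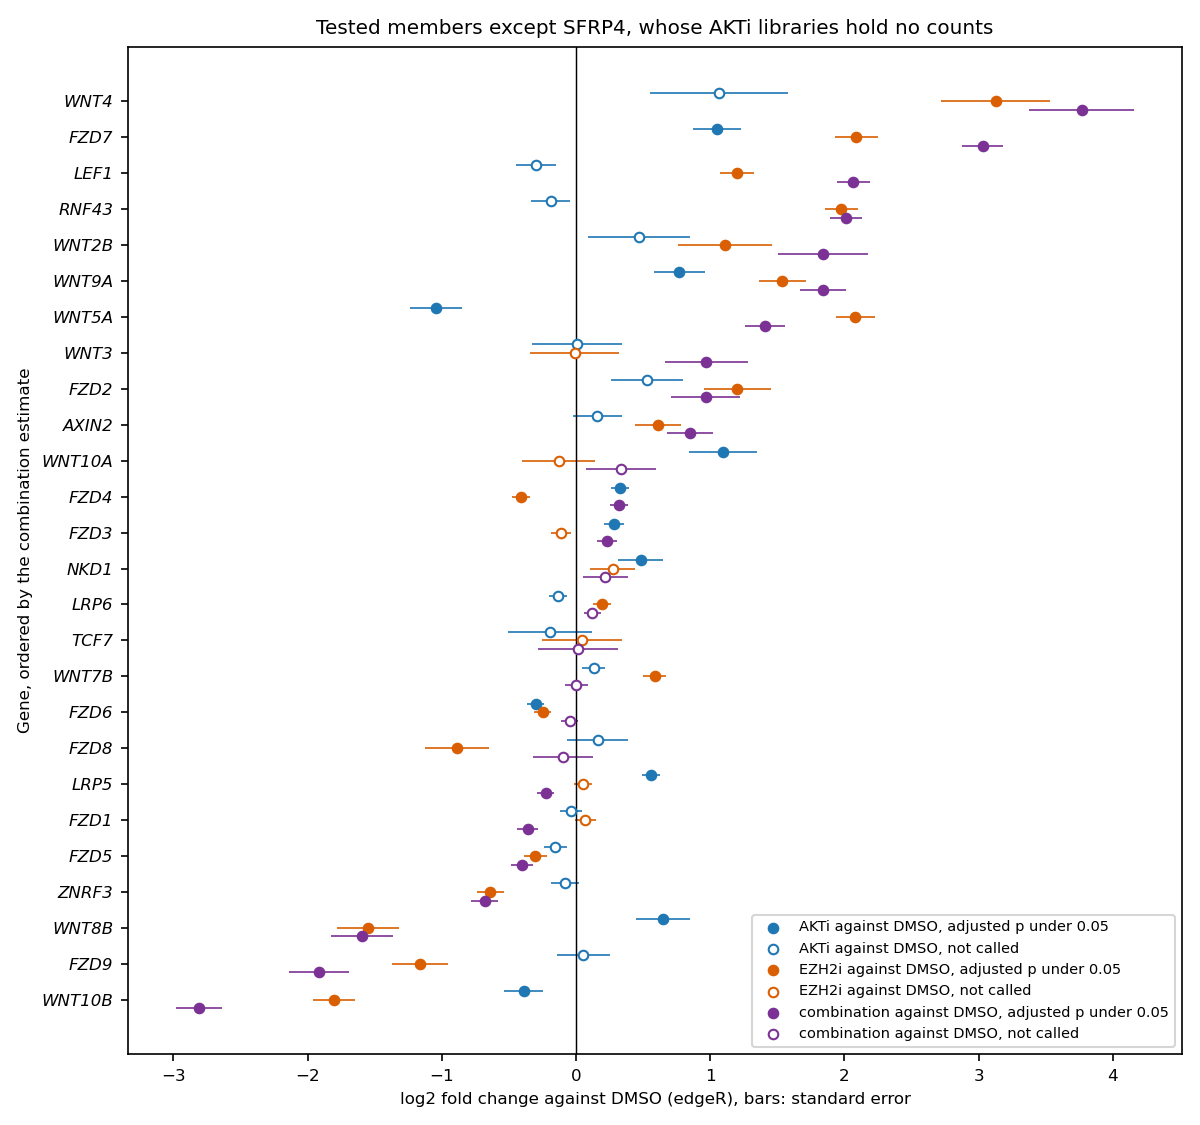
Log2 fold change against DMSO (horizontal axis, edgeR estimate, bars 1 standard error) of 26 tested members, ordered by the combination estimate; colours mark AKTi, EZH2i and the combination, filled points have an adjusted p under 0.05 and SFRP4 is left out because its AKTi libraries hold no counts. WNT4 (3.77, tested only through its high libraries) and FZD7 (3.03) head the combination and WNT10B (-2.81) ends it, and WNT5A, WNT8B and FZD4 have AKTi and EZH2i points on opposite sides of 0.

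Further genes of the pathway, 88 in 7 lists chosen with earlier results of these data known, were read beside all tested genes. Of 64 tested, 28 were higher (43.8%, beside 20.6% of all tested genes) and 3 lower (4.69%, beside 21.9%) with AKTi, and 43 were higher (67.2%, beside 32.6%) and 9 lower (14.1%, beside 31.5%) with EZH2i. In the combination 44 were higher (68.8%, beside 38%) and 11 lower (17.2%, beside 35.2%). The medians were 0.22, 0.42 and 0.43 on the log2 scale. VANGL2, ROR2, DAAM2, TLE4 and WLS passed the filter on low counts only through libraries with EZH2i, so they had to be higher there. Without these 5 genes, 38 of 59 were higher and 9 lower with EZH2i (64.4% and 15.3%), and 39 were higher and 11 lower in the combination (66.1% and 18.6%). Over all genes that did not pass in this way on either side, 31.2% were higher and 35.3% lower with EZH2i, and 36.2% and 39.3% in the combination.

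Of 8 receptors and polarity genes outside the beta-catenin branch that passed without this limit, 7 were higher with EZH2i (87.5%) and none was lower. Of all genes that passed in the same way, 31.2% were higher and 35.3% lower. In the combination 5 of the 8 were higher (62.5%, beside 36.2%) and none was lower (beside 39.3%). With AKTi 4 were higher (50%, beside 22.6%) and 1 was lower (12.5%, beside 24.7%). PTK7, a pseudokinase receptor, rose by 0.89 with AKTi, 2.92 with EZH2i and 3.28 in the combination on the log2 scale. The other 3 tested genes of this list are described by their pooled counts in DMSO, AKTi, EZH2i and combination. VANGL2, a planar polarity protein, had 14, 10, 237 and 241, ROR2, a receptor of WNT5A, had 4, 7, 28 and 49, and DAAM2, which works with Dishevelled, had 18, 23, 80 and 56.

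Of 5 tested genes of ligand secretion and inactivation, 4 were higher with EZH2i and 5 in the combination, WLS among them. For this and the next lists, the shares of all tested genes were 32.6% higher and 31.5% lower with EZH2i. In the combination they were 38% and 35.2%. WLS, which carries WNT proteins to the cell surface, had 25, 28, 268 and 396 pooled counts in the 4 arms and is given without a test. TRABD2B, a protease that inactivates WNT proteins, rose by 1.23 with AKTi, 1.36 with EZH2i and 1.87 in the combination. PORCN, which adds their lipid, rose by 0.65 with AKTi and 0.38 in the combination and was not called with EZH2i (0.22). Of 4 tested genes in a list of further antagonists and related genes, 3 were higher and 1 lower in both EZH2i and combination. Their effect on the pathway was not tested. APCDD1 (1.25 and 2.23), DKKL1 (1.57 and 1.67) and KREMEN1 (0.95 and 1.08) rose. KREMEN2, which works with DKK proteins, fell (-1.46 and -1.88). With AKTi APCDD1 (0.98) and KREMEN1 (0.51) were also called higher, while DKKL1 (1.07) and KREMEN2 (0.17) were not called. Pooled DMSO counts were 1219 for KREMEN1 and 594 for KREMEN2. Of 7 R-spondins and R-spondin receptors, LGR4 was the 1 tested gene, and it was higher with EZH2i (0.45) and in the combination (0.40).

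Inside the cell genes moved in both directions. Beside the counts below, 32.6% of all tested genes were higher and 31.5% lower with EZH2i. These shares were 38% and 35.2% in the combination, and 20.6% and 21.9% with AKTi. Of 21 Dishevelled and destruction complex genes, 11 were higher and 5 lower with EZH2i and 12 higher and 6 lower in the combination, where APC2 (-1.37) and AMER1 (-1.21) fell and TNKS, which marks AXIN for breakdown, rose (1.07). Of 15 tested genes for beta-catenin and its nuclear partners, 10 were higher and 1 lower with EZH2i, among them the corepressor TLE1 (1.23) and the kinase TNIK (2.15). The corepressor TLE4, also counted, had 7, 12, 102 and 176 pooled counts in the 4 arms. Of 7 tested feedback and commonly used target genes, 4 were higher and 2 lower with EZH2i, where TNFRSF19 (2.04) and DACT3 (1.52) rose and MYC fell (-1.37). With AKTi 6 of these 7 were higher and none lower.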

How the data were processed

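PolyA RNA was sequenced from C4.2B cells in 4 arms with 3 libraries each. Per the labels and the study's methods, the authors used STAR for alignment (hg38), HTSeq for the gene counts and DESeq2 for normalisation; their versions and whether counting used strand are not given in the sources used here. The deposited count values are whole numbers per gene (14133755 to 22276417 per library), and the deposited signal values are the authors' counts divided by 1 size factor per library (0.837 to 1.34), checked over 56994 gene names. The deposited gene lengths served for RPKM. Sequencing was at either of 2 places, not assigned to libraries, so no such batch could be modelled.

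Counts were analysed with edgeR 4.0.16 in R 4.3.3: filterByExpr (minimum count 10, minimum total 15), TMM scaling, 1 mean per arm over all 12 libraries and the quasi-likelihood test, with Benjamini-Hochberg adjustment over all 16646 genes and a threshold of 0.05. The steps were tested on simulated data. Named normalised counts are the authors' values; fold changes are this fit's. Values per library are given for members with a called change of at least 1 on the log2 scale against DMSO or a called interaction. Other members are given by contrasts or ranges. Up to 3 called genes with the largest change are named per further list, and DAAM2 and KREMEN1 were named after their values were seen. Count ratios carry exact 95% intervals that cover counting error only. Libraries of an arm differed by more than sampling noise (chi-square per gene 2.63 to 8.13). Of the luminal markers listed at first, 2 are not reported here. The members and lists were chosen with earlier results of these data known. Alternatives were DESeq2 1.42.0, other scalings and filters, a replicate block, only the libraries compared, and each library left out. Promoters came from RefSeq. No CPM or RPKM values were used in tests.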

Additional observations from a re-analysis of the deposited data

Results flagged for a closer look

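The 8 members below had a called interaction in edgeR's test across 16646 genes. Except for SFRP4, their joint effect differed from what adding up the log2 changes of AKTi and EZH2i alone gives. The differences were 1.16 for LEF1, 0.50 for FZD6 and 0.40 for FZD4, and -0.84 for LRP5, -0.81 for FZD9, -0.72 for WNT7B and -0.39 for FZD1. The call of FZD9 did not hold without any of 8 single libraries or with a filter of 1 count in total. SFRP4 passed the filter on low counts only through its combination libraries, so its place among the 8 is no test. Its fitted 5.92 rests on AKTi libraries that are all at 0 and is no bound. In groups of 3 libraries no single library was tested as standing apart.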

How the results depend on the processing

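The number of called members stayed within 1.5 times its value in all 6 comparisons under every alternative run. Leaving out single libraries gave 8 to 12 called members for AKTi against DMSO, 18 to 19 for EZH2i against DMSO, 19 to 21 for the combination against DMSO, 20 to 21 for the combination against AKTi, 13 to 15 for the combination against EZH2i and 6 to 9 for the interaction. FZD6 in the combination against DMSO, not called at first (-0.05), turned to a called 0.15 with scaling by library size only (adjusted p = 0.0348), the scaling that also moves the median of all genes. Of 93 called changes of single members, 17 lost their call under at least 1 alternative; those not named with their result are FZD5 in the combination against AKTi (other scalings or a filter of 10 counts in every library, adjusted p up to 0.260) and FZD6 in the combination against EZH2i (a filter of 1 count in total, or without combination C or EZH2i C, adjusted p up to 0.0941). Without DMSO C, the 1 DMSO library with SFRP4 counts, the fitted SFRP4 change in the combination moved from 3.80 to 6.93. The replicate block left the counts at 11, 19, 20, 20, 15 and 8 and changed no call; the letters did not pair the samples, since deviations of same-lettered libraries correlated at -0.058 to 0.069 over 18 pairs and 4 of 12 libraries correlated best with their own letter. Genes with a few counts per library, such as SFRP1 and WNT5B, could not be tested at this depth.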
